A study of Mus musculus with 2 samples.

Results

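The semaphorin, plexin, neuropilin, ephrin and Eph receptor genes were described in single cells of the newborn mouse dentate gyrus. Members were taken by symbol: Sema3 to Sema7 with a letter, the Plxna, Plxnb, Plxnc and Plxnd genes, Nrp1 and Nrp2, the Epha and Ephb receptors, and the Efna and Efnb ephrins. This rule took 53 of the 31053 genes in the tables, namely 20 semaphorins, 9 plexins, 2 neuropilins, 14 Eph receptors and 8 ephrins. Both libraries were made at postnatal day 2, the KO library from animals of the genotype hGFAP-Cre;Kdm6bF/F and the control library from their littermates, labelled WT. Which alleles the littermates carried was not given in the labels. hGFAP-Cre expresses Cre recombinase under a human GFAP promoter in radial glia, so the floxed Kdm6b gene, which encodes a histone H3K27 demethylase, is open to recombination in neurons and glia descended from them but not in vessels or microglia. Each genotype had 1 library of 2 pooled animals, read as unique molecular identifiers (UMIs) from the 3′ ends of transcripts, and the comparison asks how loss of Kdm6b bears on the cells of the dentate gyrus. With 1 library per genotype no test can be made and no p-value is given, and every interval below is a 95% interval that covers counting error only.

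Semaphorins are secreted or membrane-bound cues that steer axons and migrating cells. The secreted Sema3 proteins mostly bind a neuropilin, which pairs with a plexin that carries the signal, while membrane-bound semaphorins bind plexins directly. Ephrins are membrane-tethered ligands of the Eph receptor tyrosine kinases, and cell contact can send signals into both cells. In the hippocampus these families sort axons into layers and help to place mossy fibres, the axons of granule neurons, and in vessels ephrin-B2 and EphB4 are classic marks of arteries and veins.

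The results turn mainly on Epha5 and Epha7, A-type Eph receptors whose levels differed between the libraries in pyramidal neuron-like cells, on Epha4, an A-type receptor whose level there did not pass the 1.5-fold limit used below, and on Efna5, a ligand that A-type receptors bind. The 250 bases upstream of their RefSeq starts are shown because KDM6B acts on a mark found at CG-rich promoters. Build GRCm38.p6 was used, each is printed 5′ to 3′ on the gene's own strand, and capitals mark the CG dinucleotides. The Epha5 window is chr5:84417383-84417632 (minus strand), that of Epha7 chr4:28812881-28813130 (plus strand), that of Epha4 chr1:77515089-77515338 (minus strand) and that of Efna5 chr17:62881318-62881567 (minus strand).
Epha5: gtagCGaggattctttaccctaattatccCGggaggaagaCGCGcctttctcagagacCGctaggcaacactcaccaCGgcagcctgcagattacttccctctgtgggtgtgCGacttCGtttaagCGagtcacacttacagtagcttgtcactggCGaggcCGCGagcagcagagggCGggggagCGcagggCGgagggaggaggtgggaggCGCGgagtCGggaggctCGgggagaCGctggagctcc
Epha7: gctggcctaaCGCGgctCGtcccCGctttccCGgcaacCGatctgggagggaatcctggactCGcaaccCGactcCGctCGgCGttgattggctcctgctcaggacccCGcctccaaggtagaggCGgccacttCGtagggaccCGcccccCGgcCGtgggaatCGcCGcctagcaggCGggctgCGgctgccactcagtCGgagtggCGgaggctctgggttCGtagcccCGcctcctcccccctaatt
Epha4: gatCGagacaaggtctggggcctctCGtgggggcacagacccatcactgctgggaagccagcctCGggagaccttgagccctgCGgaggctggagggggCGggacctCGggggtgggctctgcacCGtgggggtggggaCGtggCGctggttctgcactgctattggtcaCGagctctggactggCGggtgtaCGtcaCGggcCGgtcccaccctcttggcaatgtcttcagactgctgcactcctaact
Efna5: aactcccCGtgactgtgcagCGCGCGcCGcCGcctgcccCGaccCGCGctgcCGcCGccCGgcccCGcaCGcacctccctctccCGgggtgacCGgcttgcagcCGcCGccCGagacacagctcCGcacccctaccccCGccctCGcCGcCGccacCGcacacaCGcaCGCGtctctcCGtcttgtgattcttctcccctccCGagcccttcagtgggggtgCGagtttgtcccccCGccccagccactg
Epha5 held 20 CG dinucleotides, a count that 17.9% of all 32851 promoters in the RefSeq table reached. Epha7 held 25 (reached by 10.7%), Epha4 14 (29.4%) and Efna5 32 (4.58%). Of the 53 members, 47 had an entry, and 41 of these lay at or above the median of all promoters, 6 CG dinucleotides, with a median of 16 and a range of 2 to 46. The search read the letters CG, which are the same on both strands, and bears on no binding or mark in these cells.

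The cells that passed the filters numbered 2957 in the control library, with 31518520 UMIs and a median of 7342 per cell, and 1931 in the KO library, with 25487578 UMIs and a median of 9267. The libraries shared 6 cell barcodes. They also differed in the sex of their cells: 33.3% of control cells had a Y-linked UMI and no Xist (31.6 to 35.1%), against 0 of 1931 KO cells (up to 0.191%), so the differences named below for Epha5 and Epha7 in pyramidal neuron-like cells, and others that moved, are given again for Xist-only cells, those in which Xist was read and Y-linked genes were not (1305 control and 1817 KO cells). Kdm6b itself had 1831 and 1470 UMIs, or 58.1 and 57.7 CPM (UMIs of a gene per 1000000 UMIs of the class). The labels do not state where in the gene the floxed part lies, and a 3′ count may lie outside it, so these values do not check the labels. By class Kdm6b was lower in intermediate progenitor-like (96.9 and 49.8 CPM) and pyramidal neuron-like cells (43.7 and 35.0), higher in endothelial-like cells (99.5 and 122), and within counting error in radial glia-like (61.0 and 76.9), neuroblast-like (80.5 and 72.1) and GABAergic neuron-like cells (41.7 and 41.8). Cells fell into 28 clusters, of which 3 kept only a number because no marker list named them. The largest class, with 860 control and 640 KO cells, was pyramidal neuron-like, although the tissue is labelled dentate gyrus. Prox1, the defining gene of the granule lineage, was detected in 93.9% of the cells of neuroblast-like cluster 3 and in 4.0% of pyramidal neuron-like cluster 0.

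The guidance genes held 83017 control and 65031 KO UMIs. Of the 53 members, 43 had at least 100 UMIs in each library, and 1, Epha1, had 3 UMIs over both. Levels of a gene were compared across 12 classes. For 27 of the 43 the same class was highest in both libraries, and the rank correlation of the 12 class levels between the libraries had a median rho of 0.82 (0.17 for Efnb2 to 0.95 for Sema5a). This correlation describes class averages that share their clustering. The class highest in both libraries was endothelial-like for 7 members, pyramidal neuron-like for 6, granule neuron-like for 3 and radial glia/neural stem cell-like (below also NSC-like) for 3.

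**Figure D1:**
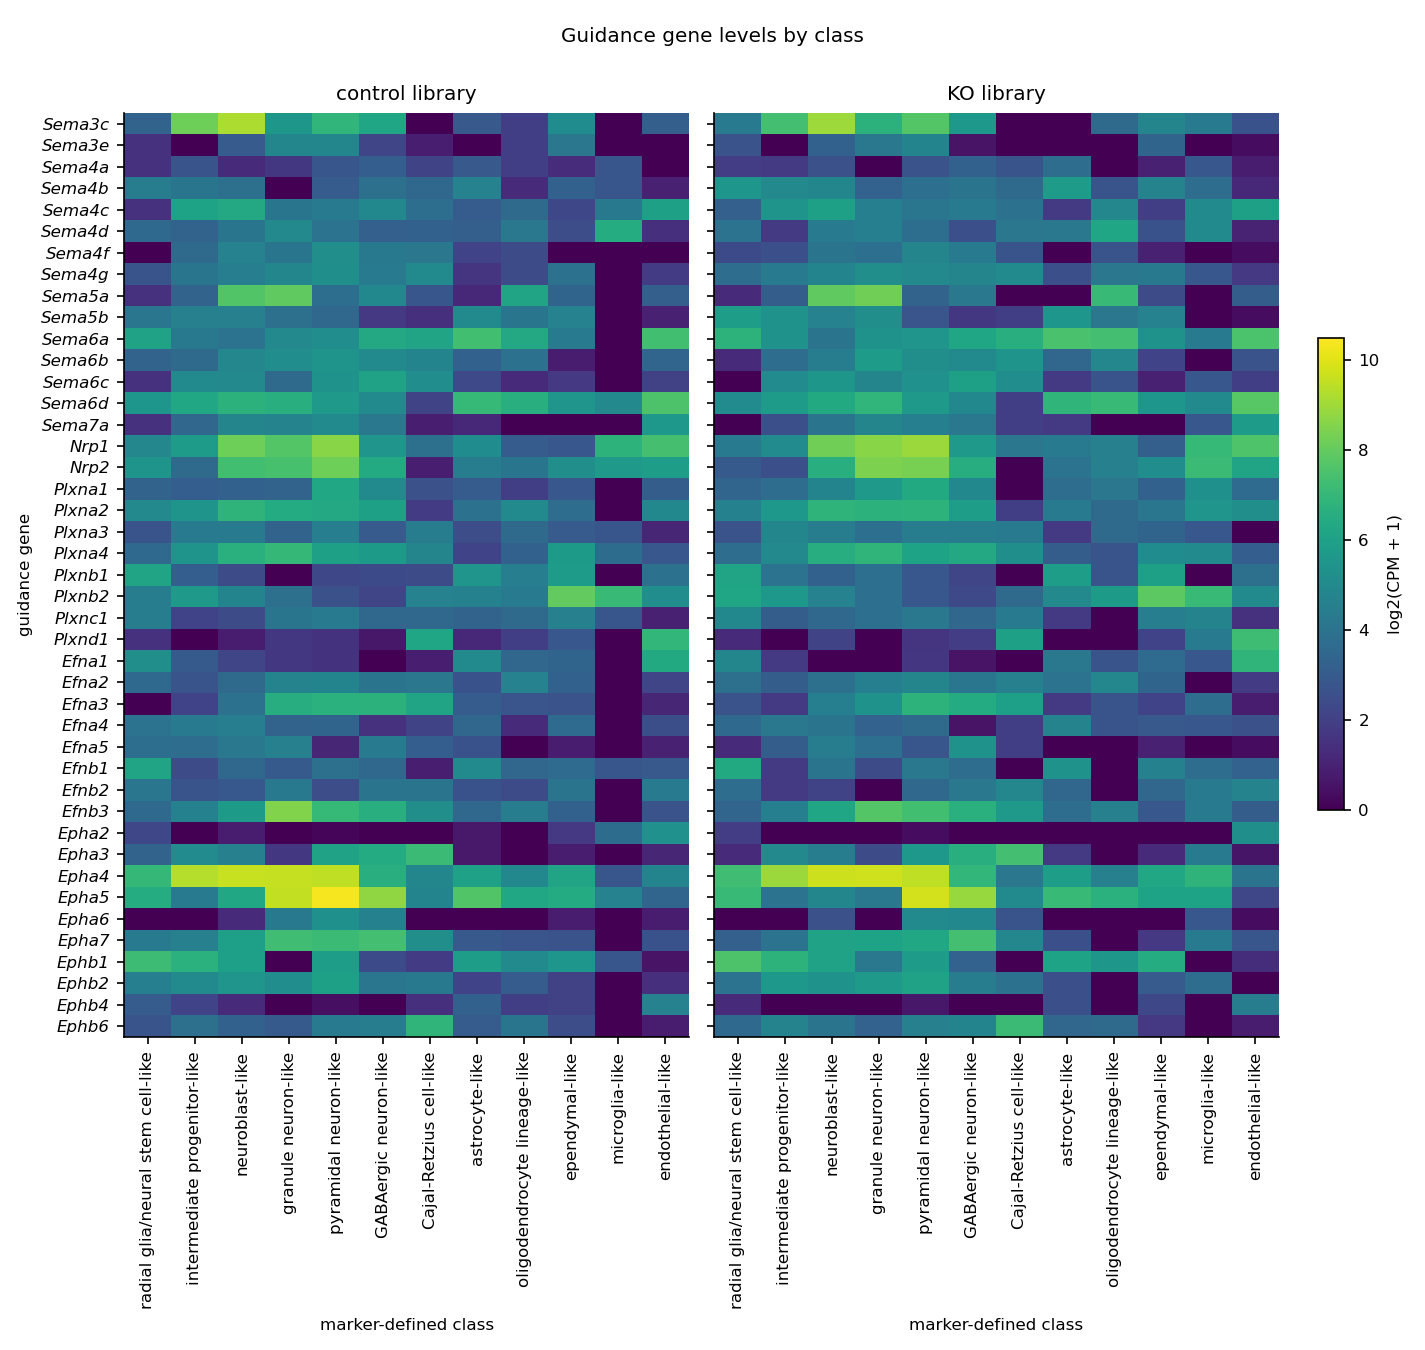
Level of the 43 guidance genes with at least 100 UMIs in each library (rows) in 12 marker-defined classes (columns), as log2(CPM + 1), for the control (left) and the KO library (right). The same class is highest in both panels for 27 of the 43 genes. Sema3c stands out in neuroblast-like and Plxnd1 in endothelial-like cells.

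Sema3c, a secreted semaphorin, was highest in neuroblast-like cells of both libraries. It reached 592 CPM there in the control library (824 UMIs) and 496 in the KO library (289 UMIs). In intermediate progenitor-like cells it was at 287 and 162 CPM, and in pyramidal neuron-like cells at 119 and 206. The 2 neuroblast-like clusters differed in it within each library. Cluster 13, with Prox1 in few cells (4.5%), had 997 and 846 CPM of Sema3c, and the Prox1-rich cluster 3 had 418 and 335.

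Sema5a, a membrane-bound semaphorin, showed the opposite split between those clusters. Cluster 3 had 268 and 335 CPM of Sema5a, and cluster 13 had 42.9 and 49.1. It was also high in granule neuron-like cells, at 243 and 300 CPM, while pyramidal neuron-like cells had 12.8 and 9.15. Sema5a was thus high where Prox1 was read in most cells and Sema3c highest where it was not, in both libraries.

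Vessel cells carried another set of semaphorins. Sema6d, a ligand of A-type plexins, was at 187 and 219 CPM in endothelial-like cells, and at 368 and 401 in mural-like cells, a class of 15 control and 53 KO cells. Among the 12 classes compared, astrocyte-like cells came next in the control library (129 CPM) and oligodendrocyte lineage-like cells in the KO library (137 CPM). Sema6a, also a ligand of A-type plexins, was at 160 and 184 CPM in endothelial-like and at 159 and 177 in astrocyte-like cells, which did not differ beyond their intervals within either library. Sema7a, a lipid-anchored semaphorin, was at 47.5 and 55.3 CPM in endothelial-like cells. The next class was pyramidal neuron-like in the control library (31.0 CPM) and granule neuron-like in the KO library (26.5 CPM). In the KO library the interval of the highest over the next class held equal levels (0.94 to 5.75). Sema3g, an endothelial semaphorin, had 46 and 43 UMIs in that class (11.0 and 11.3 CPM) and 0 in both libraries in pyramidal neuron-like, granule neuron-like and astrocyte-like cells.

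Several secreted semaphorins were scarce. Sema3a, a repellent of hippocampal axons, had 88 control and 45 KO UMIs over all cells, with 28 and 15 of them in neuroblast-like cells. Sema3e, the ligand of Plxnd1, was at 27.2 and 25.5 CPM in pyramidal neuron-like cells. Sema4d, a membrane-bound semaphorin, had its highest control level in microglia-like cells, at 90.3 CPM from 15 UMIs, against 30.9 CPM from 5 UMIs in the KO library. Its highest KO level was in oligodendrocyte lineage-like cells, at 74.0 CPM, so its order differed between the libraries and rests on few counts.

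The neuropilins, the ligand-binding coreceptors of Sema3 proteins, were high in excitatory neurons. Nrp1 was at 392 CPM in control and 478 in KO pyramidal neuron-like cells, at 293 and 299 in neuroblast-like cells, and at 170 and 193 in endothelial-like cells. Nrp2 was at 288 and 322 CPM in pyramidal neuron-like cells and at 56.1 and 69.0 in endothelial-like cells. Among the neuroblast-like clusters, Nrp1 was higher in cluster 13 (589 and 447 CPM, against 165 and 230 in cluster 3), while Nrp2 was higher in cluster 3 (205 and 110 CPM, against 54.8 and 60.0 in cluster 13).

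**Figure D2:**
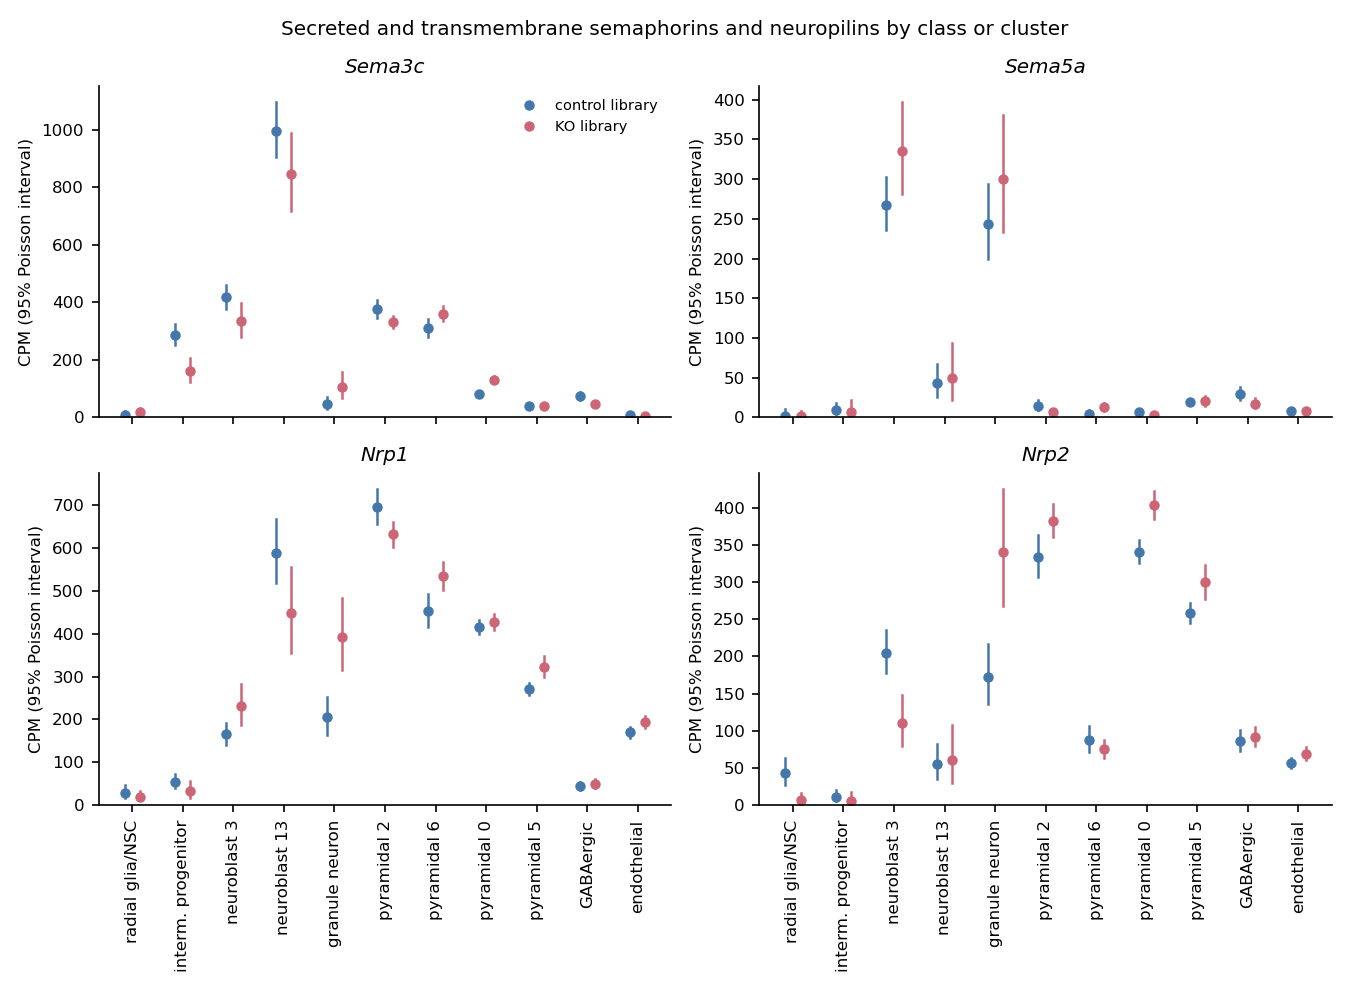
CPM of Sema3c, Sema5a, Nrp1 and Nrp2 (vertical axes, from 0) in single classes and clusters (horizontal axis) of the control (blue) and KO library (red), with exact 95% Poisson intervals. Sema3c and Nrp1 are higher in neuroblast-like cluster 13, and Sema5a and Nrp2 in cluster 3.

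Plexins, the signalling receptors of semaphorins, divided between neurons, glia and vessels. Plxnd1, a receptor known for vessel patterning, was at 123 and 151 CPM in endothelial-like cells, at 71.7 and 62.4 in Cajal-Retzius cell-like cells and at 1.90 and 1.97 in pyramidal neuron-like cells. Plxna2 and Plxna4, which guide mossy fibres, were high in the granule lineage. Plxna2 was at 111 and 113 CPM in neuroblast-like cells, and Plxna4 was at 127 and 115 in granule neuron-like cells. For both genes the next class lay within counting error of the highest. For Plxna2 that was granule neuron-like in the control library (86.4 CPM) but pyramidal neuron-like in the KO library (108 CPM), outside the granule lineage.

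Plxnb2, a receptor of Sema4 proteins, was highest in ependymal-like cells (248 and 229 CPM), with 138 and 136 in microglia-like cells. Plxnb1, of the same family, was at 68.4 and 70.0 CPM in radial glia/NSC-like cells. Plxnb3 had 25 of its 43 control and 14 of its 25 KO UMIs in oligodendrocyte lineage-like cells. The tables also list Plxna4os1, Plxna4os2 and Plxna4os3, antisense to Plxna4, with 58, 4 and 1 UMIs over both libraries against 2561 of Plxna4.

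Among the ephrins, Efna1 marked vessels and Efnb3 neurons. Efna1, an A-type ligand, was at 82.2 and 116 CPM in endothelial-like cells and at 35.1 and 27.5 in radial glia/NSC-like cells. Efnb3, a B-type ligand, was at 368 and 208 CPM in granule neuron-like cells and at 129 and 160 in pyramidal neuron-like cells. Efnb1, an X-linked B-type ligand, was highest in radial glia/NSC-like cells (68.4 and 81.0 CPM). Efnb2, the arterial ephrin, was at 18.7 and 25 CPM in endothelial-like cells, a level that other classes shared within counting error.

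Eph receptors differed in how broadly they were read. Epha4, which binds ephrins of both types, was at 781 and 824 CPM in neuroblast-like cells, 757 and 866 in granule neuron-like cells, 711 and 723 in pyramidal neuron-like cells and 652 and 481 in intermediate progenitor-like cells. Ephb1 led in radial glia/NSC-like cells, at 144 and 188 CPM, followed by intermediate progenitor-like cells at 104 and 110. Ephb2, a B-type receptor, was highest in pyramidal neuron-like cells, at 62.4 and 64.6 CPM. Ephb6, whose kinase domain is inactive, was at 116 and 142 CPM in Cajal-Retzius cell-like cells, against 20.2 and 25.6 in the next class. Epha3 was also highest there, at 140 and 162 CPM. Epha2 and Ephb4 were read in endothelial-like cells, Epha2 at 39.1 and 36.9 CPM and Ephb4, the venous receptor, at 24.2 and 20.3.

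Differences between the libraries were read in 6 classes that had been fixed by name and had at least 50 cells in each library. Ependymal-like and astrocyte-like cells also reached 50 and are given last, chosen after their values were seen, and the unnamed cluster 7, which reached it too, was not read. A gene with at least 20 UMIs over both libraries was called if its CPM differed at least 1.5-fold, and ratios are given as log2 of the KO over the control level after 0.5 UMI was added to both sums. Over all cells 3 members were higher and 3 lower of 52 read, where 13.9% of all 16081 genes were called (8.54% higher and 5.34% lower), a comparison in which the mix of classes also counts. The share of members called was set beside the share of all genes called by the same rule.

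In pyramidal neuron-like cells 48 of the 53 members had enough UMIs, and 6 were higher and 5 lower in the KO library, where 13.2% of all 12976 genes were called (5.42% higher and 7.83% lower). The members' median log2 ratio was 0.03, against -0.03 over all genes. With 11 of 48 members called, the share was above that of all genes, with the larger gap on the higher side. The share of members was also above that of all genes in each of the other classes fixed by name. These include endothelial-like cells, which hGFAP-Cre does not reach, so the excess was not particular to pyramidal neuron-like cells. It was not tested, and single genes are given below. Of 62 other guidance genes (slits, netrins, their receptors and signalling partners), 56 could be read, of which 6 were higher and 2 lower.

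Epha5, on chromosome 5, was lower in the KO library. It had 18697 UMIs in the 860 control cells and 10193 in the 640 KO cells, or 1319 and 871 CPM. The log2 ratio was -0.60 (ratio 0.645 to 0.677). With every cell thinned to 2000 UMIs, 84.7% of control cells had an Epha5 UMI (82.0 to 87.1%) and 71.3% of KO cells (67.5 to 74.8%), whereas 1.1% of control endothelial-like cells did. Unthinned, the shares in pyramidal neuron-like cells were 95.7% and 95.3%, at median depths of 15414.5 and 17004 UMIs. Among Xist-only cells the log2 ratio was -0.64.

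The lower Epha5 level was not shared by every pyramidal neuron-like cluster. Cluster 0 had 1261 and 776 CPM, cluster 2 had 623 and 464, and cluster 5 had 1675 and 1255. Cluster 6, led by Cck and Pou3f1, went the other way, with 1125 and 1314 CPM (log2 ratio 0.22, ratio 1.09 to 1.25). Epha5 was therefore lower in 3 of the 4 clusters with at least 50 cells in each library. Equal cluster weights, here and below, average every cluster of a class with at least 10 cells in each library. In this class they add cluster 24, with 37 control and 11 KO cells, to those 4. So weighted, the class value was -0.53, short of 1.5-fold, and it is not the mean of the 4 clusters alone. It was -0.57, also just short, with TMM factors and with median-of-ratios size factors, 2 other scalings of the libraries. Cluster 5 held 243 control and 83 KO cells, and cluster 2, lowest of the 4 in Epha5, held 143 and 216. The 12 pyramidal neuron markers summed to 2875 and 2810 CPM over the class. Among them Slc17a7 (235 and 108 CPM) and Nwd2 (48.8 and 26.1) were lower, and Crym (782 and 886) and Grp (89.4 and 126) higher. The part of the cluster mix and of these shifts in the Epha5 and Epha7 values was not tested.

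Epha7, on chromosome 4, was lower in all 4 of those clusters. Over the class it had 2009 control and 904 KO UMIs, or 142 and 77.3 CPM, with a log2 ratio of -0.87 (ratio 0.504 to 0.590). Cluster 0 had 143 and 64.3 CPM, cluster 2 had 94.8 and 38.8, cluster 5 had 119 and 93.7, and cluster 6 had 293 and 145. The log2 ratios ran from -1.29 in cluster 2 to -0.34 in cluster 5. Among Xist-only cells the class value was -0.85, and 3 of the 4 clusters again lay past 1.5-fold. GABAergic neuron-like cells, read in the same libraries, had 162 and 164 CPM of Epha7.

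**Figure D3:**
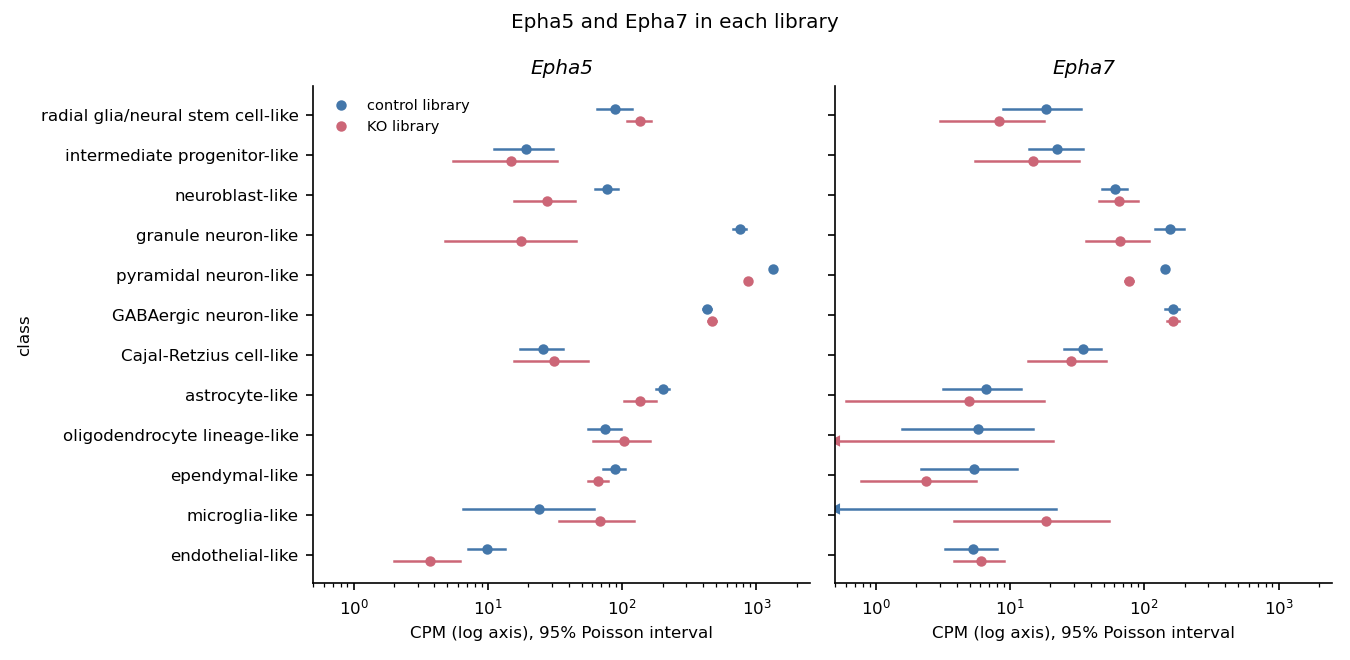
CPM of Epha5 (left) and Epha7 (right) on a log axis in 12 classes of the control (blue) and KO library (red), with exact 95% Poisson intervals. Arrows at the left edge stand for 0 UMIs. In pyramidal neuron-like cells both genes lie lower in the KO library, and the widest gap is that of Epha5 in granule neuron-like cells, 750 against 17.7 CPM.

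Epha4 was level between the libraries in pyramidal neuron-like cells, with 10083 and 8453 UMIs (711 and 723 CPM). By cluster its log2 ratio was -0.02, 0.02 and 0.06 in clusters 0, 2 and 5 and 0.49 in cluster 6. Epha3, another A-type receptor, was at 56.9 and 16.3 CPM in cluster 5 (302 and 35 UMIs, log2 ratio -1.78) and at 72.7 and 68.8 in cluster 6. The A-type receptors thus differed from one another in how their levels compared between the libraries.

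Ligand genes were among those higher in the KO library. Efna5, on chromosome 17, had 17 UMIs in control and 71 in KO pyramidal neuron-like cells (1.2 and 6.07 CPM, log2 ratio 2.31, ratio 2.95 to 9.17). Cluster 5 gave 4 of the control and 39 of the KO UMIs, found in 4 of 243 and 18 of 83 cells, with up to 12 in 1 KO cell. Efnb2 had 64 and 124 UMIs (log2 ratio 1.23), and cluster 5 again showed the largest ratio of the 4 clusters, with 17 and 41 UMIs. In cluster 6 Efnb2 was at 20.6 and 18.2 CPM, so its class value does not hold there, and with each cell weighing alike it was 0.56 over the class.

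Sema3c had 1683 and 2406 UMIs in the class (log2 ratio 0.79, ratio 1.63 to 1.85), but its clusters did not share this. It was at 81.9 and 132 CPM in cluster 0, 377 and 330 in cluster 2, 39.0 and 41.5 in cluster 5, and 311 and 359 in cluster 6. Cluster 2, rich in Sema3c in both libraries, held 143 of 860 control but 216 of 640 KO cells. Of these 4 clusters only cluster 2 was lower in the KO library. With equal cluster weights the Sema3c class value was -0.16, but this also takes in cluster 24. That cluster had 37 control and 11 KO cells, with 66205 and 28786 UMIs of all genes. The parts of cluster 24 and of the mix of clusters in the class values were not tested.

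Plxna2, Plxna1 and Efnb3, picked after their values were seen, showed smaller differences in the same direction in all 4 clusters. Plxna2 was at 77.5 and 109 CPM in cluster 0, 77.9 and 107 in cluster 2, 80.4 and 107 in cluster 5, and 87.5 and 111 in cluster 6, and over the class its log2 ratio was 0.44 (ratio 1.25 to 1.47). Efnb3 log2 ratios were 0.54, 0.43, 0.54 and 0.14 in the same order. Plxna1, another A-type plexin, gave 0.47, 0.65, 0.24 and 0.49. Most of these lay below 1.5-fold.

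Among the 35 members with at least 20 UMIs in each of the 4 clusters, 7 were higher in the KO library in all 4 (Plxna1, Plxna2, Efnb3, Sema4b, Sema6a, Ephb2 and Ephb6) and 2 lower in all 4 (Epha7 and Epha3). Over all 9085 genes read in this way, 15.3% were higher and 17.5% lower in all 4 clusters. None of the 35 members passed 1.5-fold in all 4, where only 0.484% of all genes did so higher and 0.341% lower. With shares this small, none among 35 says little about the members.

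A further 3 members were lower over the class. Sema3f, a ligand of Nrp2, had 29 and 2 UMIs (log2 ratio -3.28, ratio 0.01 to 0.33), Sema3b had 33 and 9, and Sema5b, a membrane-bound semaphorin, had 148 and 68 (log2 ratio -0.84, or -0.42 with equal cluster weights). Sema3f and Sema3b rest on few counts. Sema4b, a membrane-bound semaphorin, was higher, with 103 and 156 UMIs (log2 ratio 0.87, or 0.49 with equal cluster weights). In clusters 0, 2, 5 and 6 its log2 ratios were 0.62, 0.53, 1.04 and 0.66. The equally weighted values of Sema5b and Sema4b also take in cluster 24, with 37 control and 11 KO cells.

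**Figure D4:**
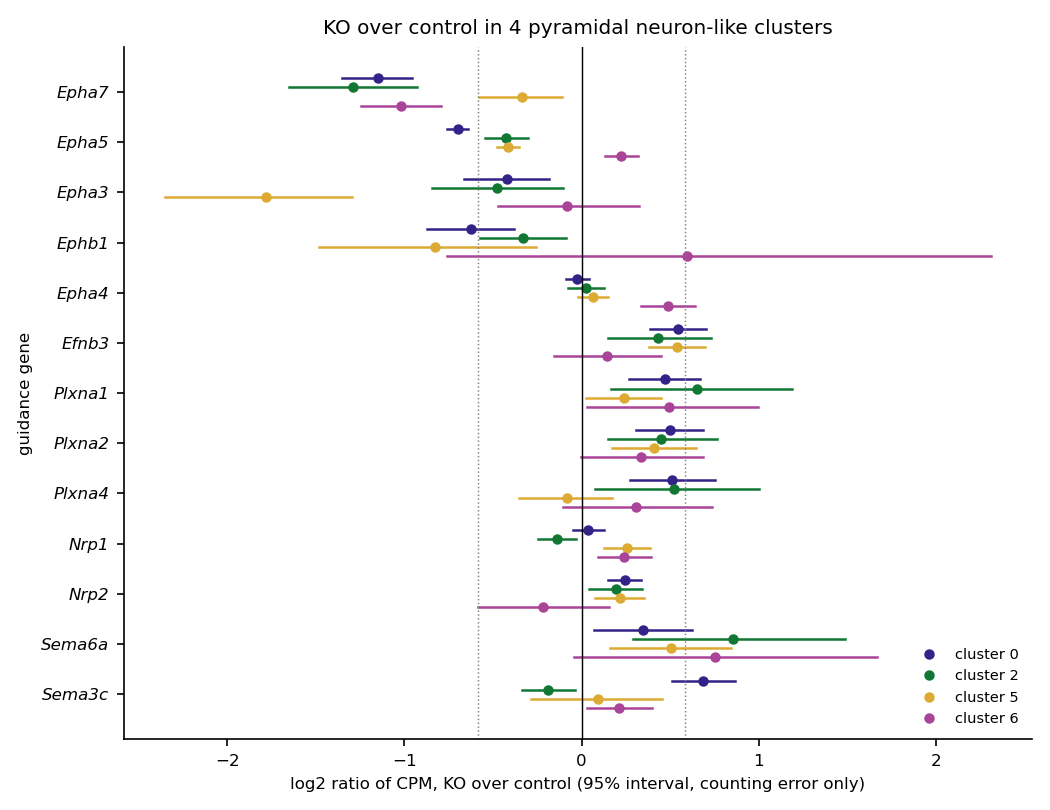
Log2 ratio of CPM, KO over control (horizontal axis), of 13 guidance genes in the 4 pyramidal neuron-like clusters with at least 50 cells in each library, with 95% intervals for counting error. The solid line marks equal levels and dotted lines 1.5-fold. Epha7 lies left of 0 in all 4 clusters and Plxna2 right of 0 in all 4, while Epha5 lies right of 0 in cluster 6 only and Sema3c varies in sign.

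The granule neuron-like class had 54 control and 30 KO cells, under the minimum of 50, and its values are given as a description. Epha5 had 330 UMIs in the control and 4 in the KO cells, or 750 and 17.7 CPM (log2 ratio -5.24, ratio 0.01 to 0.06). The UMIs came from 46 of 54 control and 4 of 30 KO cells. Thinned to 2000 UMIs, 64.2% of control cells and 3.3% of KO cells had an Epha5 UMI. Among Xist-only cells, 16 control cells held 103 and 30 KO cells 4. Of 16 members read in this class 4 were higher and 4 lower, where 33.6% of all genes were called (14.1% higher and 19.4% lower).

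Other guidance genes of the class differed too. Epha7 was at 155 and 66.3 CPM and Efnb3 at 368 and 208, both lower in the KO library. Nrp1 was at 205 and 393 CPM, Nrp2 at 173 and 340 and Sema3c at 45.5 and 106, all higher. Epha4 (757 and 866 CPM), Sema5a (243 and 300) and Plxna4 (127 and 115) were level within their intervals.

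Markers of maturity moved with these values. Of 10 granule neuron markers, 9 had UMIs in the control and 6 in the KO cells, and their summed level was 2665 and 1118 CPM. Calb1, a calcium-binding protein of maturing granule neurons, was at 1246 and 44.2 CPM, and C1ql2 had 32 and 0 UMIs, while Prox1 was at 666 and 778 CPM. The 8 neuroblast markers, all detected in both, summed to 5191 and 8210 CPM, with Sox11, a factor of immature neurons, at 437 and 1723. Their part in the Epha5 difference was not tested.

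In neuroblast-like cells (382 and 132), 34 members were read and 5 were higher and 4 lower in the KO library, where 19.1% of all genes were called (8.45% higher and 10.6% lower). The median log2 ratio of the members was 0.08, against -0.03 over all genes. Among the other guidance genes 4 were higher and 3 lower of 39.

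Epha5 had 107 and 16 UMIs in neuroblast-like cells, or 76.9 and 27.5 CPM (log2 ratio -1.45, ratio 0.20 to 0.61). Cluster 13 was at 212 and 87.3 CPM. Cluster 3 had 18 UMIs in the control library (18.5 CPM) and 0 in the KO library, where up to 9.23 CPM would be allowed. Epha5 was thus lower in both clusters, at levels well under those of pyramidal neuron-like cells.

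Nrp2 had 222 and 55 UMIs in neuroblast-like cells (160 and 94.4 CPM, log2 ratio -0.75, ratio 0.43 to 0.80). The difference lay in the Prox1-rich cluster 3, with 205 and 110 CPM, and not in cluster 13, with 54.8 and 60.0. The class value fell short of 1.5-fold among Xist-only cells (-0.38) and with equal cluster weights (-0.36), and with coarser clusters, at resolution 0.5, it was 0.01. Nrp1 in cluster 3 was higher in the KO library, at 165 and 230 CPM (ratio 1.07 to 1.82). The neuropilins of this cluster therefore differed in opposite directions. Plxna1 had 12 and 15 UMIs in neuroblast-like cells (log2 ratio 1.57, ratio 1.30 to 6.98). Sema3c was at 592 and 496 CPM there (log2 ratio -0.25, or -0.56 among Xist-only cells), short of 1.5-fold.

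In intermediate progenitor-like cells (192 and 76), 22 members were read, of which 5 were higher and 3 lower, and 24.7% of all genes were called (9.59% higher and 15.1% lower). The members' median log2 ratio was -0.06, against -0.05 over all genes, and 6 of 34 other guidance genes were higher and 1 lower. Sema3c had 255 and 65 UMIs, or 287 and 162 CPM (log2 ratio -0.82, ratio 0.42 to 0.74). Cluster 9, which holds most of the class, had 380 and 265 CPM of Sema3c and cluster 19 had 61.6 and 23.3. At resolution 0.5 the class value of Sema3c was -0.34, short of 1.5-fold. Epha4 was at 652 and 481 CPM (log2 ratio -0.44, or -0.14 at resolution 0.5), and Sema6a had 16 UMIs in each library (log2 ratio 1.14, ratio 1.03 to 4.72).

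In radial glia/NSC-like cells (137 and 130), 17 members were read, of which 5 were higher and 1 lower, and 27.7% of all genes were called (13.4% higher and 14.3% lower). The median log2 ratio was 0.24 for the members and -0.05 over all genes, and 2 of 29 other guidance genes were higher and 5 lower. Different clusters held most of the class in each library: cluster 11 held 54 control and 109 KO cells and cluster 16 held 83 and 21. With equal weight for each cluster 3 members were higher and 3 lower, a setting for which the share of all genes was not counted. Within cluster 11 alone 4 of 12 members were higher and 0 lower, where 823 of all 6320 genes were higher and 818 lower. Within cluster 16 only 7 members were read, with 1 higher and 1 lower, where 488 of all 3878 genes were higher and 670 lower. The part of the mix of clusters in the class counts was not tested.

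Plxnb2 had 11 UMIs in control and 54 in KO cells of this class (log2 ratio 1.81, ratio 1.88 to 7.73), spread over 11 of 137 and 36 of 130 cells. Sema5b had 9 and 41 UMIs (log2 ratio 1.70, ratio 1.62 to 7.91). For both genes nearly all KO UMIs came from cluster 11, with 4 and 52 UMIs of Plxnb2 (18.7 and 81.0 CPM) and 2 and 39 of Sema5b (9.36 and 60.7 CPM). In cluster 16 both genes had 7 and 2 UMIs. The differences were thus read in cluster 11, and cluster 16 had too few UMIs to show one.

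Sema6a was at 64.7 and 108 CPM in the class (log2 ratio 0.73, or 0.35 with equal cluster weights) and Sema4b at 20.3 and 45.3 (1.11, or 0.78). Epha5 was at 88.8 and 135 CPM in the class (log2 ratio 0.59), but within cluster 11, where most of its UMIs lay, at 168 and 140. Cluster 16 had 12 and 8 UMIs of it (36.7 and 92.9 CPM, ratio 0.90 to 6.73). The class value fell short of 1.5-fold at resolution 0.5 (0.54), without doublet removal (0.45) and with equal cluster weights (0.55). Nrp2 had 23 and 5 UMIs (log2 ratio -2.52, ratio 0.05 to 0.43), with 55.1 and 34.8 CPM in cluster 16 and 23.4 and 3.11 in cluster 11.

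In GABAergic neuron-like cells (150 and 157), 36 members were read, of which 4 were higher and 4 lower, and 12.9% of all genes were called (6.13% higher and 6.78% lower). The balance of directions was not stable: 10 were higher and 3 lower of 35 among Xist-only cells, 3 and 1 without doublet removal, 5 and 2 with TMM factors and 5 and 3 with median-of-ratios size factors. The share of all genes called was not counted under these settings, so the shifts cannot be read as particular to the members. The median log2 ratio was 0.11, against -0.03 over all genes, and 2 of 48 other guidance genes were higher and 3 lower. Efna5 had 32 and 92 UMIs (19.0 and 41.4 CPM, log2 ratio 1.11, ratio 1.44 to 3.36), and was higher in cluster 10, rich in Sst and Lhx6 (28.3 and 45.4 CPM), and in cluster 14 (7.87 and 33.4). Efna5 was thus higher in the KO library in both neuron classes in which its interval excluded equal levels. Plxna3, an X-linked plexin, had 12 and 47 UMIs (log2 ratio 1.52, ratio 1.55 to 6.13) and gave 1.32 among Xist-only cells (6 and 47 UMIs).

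Plxna4 was at 52.4 and 79.6 CPM in GABAergic neuron-like cells (log2 ratio 0.60, or 0.11 with each cell weighing alike, 0.47 without doublet removal and 0.56 with equal cluster weights). Its log2 ratio was 0.56 in cluster 10 and 0.56 in cluster 14, higher in the KO library in both. Epha4 was at 95.2 and 122 CPM, with the gap in cluster 14 (74.8 and 150 CPM) and not in cluster 10 (112 and 108), and its class value of 0.35 was 0.05 without doublet removal. Sema3c was at 73.8 and 48.1 CPM (log2 ratio -0.62), a value short of 1.5-fold with TMM factors (-0.57), median-of-ratios size factors (-0.57), equal cluster weights (-0.42) and no doublet removal (-0.34). Sema5a was at 29.2 and 17.5 CPM (-0.73), short of it with equal cluster weights (-0.58), no doublet removal (-0.52) and each cell weighing alike (-0.50).

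Endothelial-like cells, with 197 in each library, lie outside the lineage that hGFAP-Cre reaches. Of 29 members read, 1 was higher and 4 lower, and 11% of all genes were called (4.65% higher and 6.34% lower). The median log2 ratio was 0.06 for the members and -0.02 over all genes, and 3 of 43 other guidance genes were higher and 6 lower. The 5 guidance genes with the most UMIs in this class differed less than 1.5-fold: Sema6d had 781 and 831 UMIs (log2 ratio 0.22), Nrp1 708 and 733 (0.19), Sema6a 669 and 698 (0.20), Plxnd1 513 and 575 (0.30) and Efna1 343 and 439 (0.49, ratio 1.22 to 1.62). All of these were on the higher side in the KO library. With each cell weighing alike, Plxnd1 gave -0.05.

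The members lower in endothelial-like cells were at low levels. Epha5 had 41 and 14 UMIs (9.83 and 3.69 CPM), with up to 7 and 8 in 1 cell, and Epha4 had 107 and 59 (25.6 and 15.5 CPM, log2 ratio -0.72). The Epha4 value fell short of 1.5-fold with each cell weighing alike (-0.43) and at resolution 2 (-0.51). Of 12 pyramidal neuron markers, 10 and 9 had UMIs in this class, with summed levels of 30.4 and 38.7 CPM and Fibcd1 at 0 in both libraries. Thinned to 2000 UMIs, 2 of 181 control cells and 0 of 170 KO cells had an Epha5 UMI, which allows up to 2.15% of the KO cells at that depth only. Unthinned, 29 and 7 of 197 cells had one (14.7% and 3.55%). With each cell weighing alike the Epha5 log2 ratio was 0.03. The part of free neuronal RNA in these levels was not tested.

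Ependymal-like cells (88 and 158), which descend from radial glia, had 27 members read, of which 4 were higher and 6 lower in the KO library, and 17% of all genes were called (9.85% higher and 7.11% lower). Ephb1 was at 45.0 and 89.9 CPM there (58 and 189 UMIs, ratio 1.48 to 2.73). Sema6a was at 19.4 and 41.4 CPM, Sema4b at 8.54 and 24.7 and Efnb1 at 11.6 and 23.3, completing the 4 that were higher. Of the 6 lower members, Plxna4 was at 52.0 and 33.8 CPM (ratio 0.46 to 0.92). The intervals of the other 5 held equal levels: Sema3e was at 17.1 and 9.51 CPM, Efnb2 at 15.5 and 9.99, Efna4 at 11.6 and 6.66, Sema5a at 9.31 and 4.28 and Sema3b at 7.76 and 4.75.

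In astrocyte-like cells (262 and 72), 17 members were read, of which 2 were higher and 2 lower, and 21.9% of all genes were called (10.8% higher and 11% lower). Sema4b was at 24.5 and 54.7 CPM (37 and 22 UMIs, ratio 1.26 to 3.89) and Efna4 at 9.92 and 24.9 (15 and 10 UMIs, ratio 1.01 to 5.97). The lower ones, Efna1 (31.8 and 17.4 CPM) and Nrp1 (33.7 and 19.9), had 7 and 8 KO UMIs and intervals that held equal levels. Sema4b was thus higher in the KO library in radial glia/NSC-like, ependymal-like and astrocyte-like cells. It was also higher in pyramidal neuron-like cells and over all cells (8.41 and 14.2 CPM), so this was not particular to glia. Sema6a was higher in ependymal-like cells, while its value in radial glia/NSC-like cells fell short of 1.5-fold with equal cluster weights.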

How the data were processed

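Per the labels' protocols, dentate gyri of 2 animals per genotype were dissociated with papain and made into 10x Genomics 3′ libraries, with 2500 cells aimed at per genotype. The authors deposited UMI counts of each gene in each barcode as whole numbers without normalization. The submitters' processing notes name Cell Ranger 3.0.2, Seurat 3 and build mm10. Whether counting used strand is not given in the sources used here. Members and gene lists were chosen with earlier results of these data known.

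Barcodes were kept if they had 500 or more genes, 1000 or more UMIs and no more than 10% mitochondrial UMIs (3029 of 3555 control and 1967 of 2292 KO). Scrublet marked 11 and 18 barcodes (0.309% and 0.785%) at its own threshold, so the highest-scoring 0.8% per 1000 barcodes were removed (72 and 36 of those kept). Cells of both libraries were clustered together with scanpy 1.11.5 and leidenalg 0.10.2 (2000 variable genes, 30 components, 15 neighbours, resolution 1). No guidance gene was allowed among the variable genes. Clusters were named from 17 marker lists by at least 3 detected markers (in at least 10% of cells and 1.5-fold above the other clusters), together with a rule on leading genes that was set after the clusters, but not the members' values, had been seen.

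UMIs were summed per library and class and divided by all UMIs of the class (CPM). Intervals are exact Poisson for levels, exact conditional binomial for ratios and Clopper-Pearson for shares (scipy 1.17.1), at 95%. Members named for a library difference are, per class, up to 5 in each direction, ranked by the interval bound nearest to equality, plus a list fixed by name. Members and clusters outside that rule, such as Epha3, Plxna1 and the other members that shared 1 direction over 4 clusters, were named after their values were seen. So were genes called at low counts and the markers Calb1, C1ql2, Sox11, Slc17a7, Nwd2, Crym and Grp. Alternatives changed the minimum of UMIs, scaling (edgeR 4.0.16 in R 4.3.3), clustering, doublet removal and the cells used. The ratio step was tested on simulated counts.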

Additional observations from a re-analysis of the deposited data

Results flagged for a closer look

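A member was taken up here where its ratios in different classes went in opposite directions, each with an interval that excluded equal levels. None of these differences between classes was tested, since each class has 1 library per genotype. Values are log2 ratios, KO over control. Nrp2 was at 0.16 in pyramidal neuron-like and 0.30 in endothelial-like cells, against -2.52 in radial glia/neural stem cell-like and -0.75 in neuroblast-like cells (0.01 at resolution 0.5). Sema3c was at 0.79 in pyramidal neuron-like cells, against -0.82 in intermediate progenitor-like, -0.25 in neuroblast-like and -0.62 in GABAergic neuron-like cells. Its pyramidal neuron-like value was -0.16 with equal cluster weights, which take in cluster 24 with its 11 KO cells. Epha5 was at 0.59 in radial glia/neural stem cell (NSC)-like cells, against -1.45 in neuroblast-like, -0.60 in pyramidal neuron-like and -1.38 in endothelial-like cells, where it was 0.03 with each cell weighing alike. Within cluster 11, which held most of its radial glia/NSC-like UMIs, Epha5 was at -0.28. Epha4 was at 0.35 in GABAergic neuron-like cells (0.05 without doublet removal), against -0.44 in intermediate progenitor-like and -0.72 in endothelial-like cells. Sema5b was at 1.70 in radial glia/neural stem cell-like and -0.84 in pyramidal neuron-like cells.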

How the results depend on the processing

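No paired analysis was possible because each genotype has 1 library. Counts of members past 1.5-fold changed most with the minimum of UMIs. Without a minimum they were 23 (from 6) in radial glia/neural stem cell-like, 23 (from 8) in intermediate progenitor-like, 19 (from 9) in neuroblast-like, 15 (from 8) in GABAergic neuron-like and 19 (from 5) in endothelial-like cells, because members with a few UMIs then enter. With a minimum of 50 UMIs they were 3 in intermediate progenitor-like and 3 in neuroblast-like cells, since fewer members were read. Among Xist-only cells they were 4 in intermediate progenitor-like (2 higher and 2 lower), 5 in neuroblast-like (2 and 3) and 13 in GABAergic neuron-like cells (10 and 3). Resolution 0.5 gave 5 in neuroblast-like and resolution 2 gave 3 in endothelial-like cells. Keeping doublets gave 4 in GABAergic neuron-like (3 higher and 1 lower) and 3 in endothelial-like cells (all lower), and equal weights for clusters, an alternative chosen after seeing the data, gave 5 in GABAergic neuron-like cells. The cause of these was not tested. For none of these settings was the share of all genes called counted, so the changes cannot be read as particular to the members. The count in pyramidal neuron-like cells stayed between 8 and 14. Of single members, 4 values changed direction. These were Nrp2 in neuroblast-like cells (0.0078, resolution 0.5) and Sema3c in pyramidal neuron-like cells (-0.16, equal cluster weights with the small cluster 24 included). The others were Plxnd1 (-0.047) and Epha5 (0.027) in endothelial-like cells with each cell weighing alike. A further 19 moved beyond their interval and 294 did not.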

Other observations

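Guidance genes of smaller or non-neuronal classes also had class-bound levels. Epha10 had 20 and 36 UMIs in GABAergic neuron-like cells (11.9 and 16.2 CPM) and 0.71 and 1.45 CPM in pyramidal neuron-like cells. In oligodendrocyte lineage-like cells (136 and 32), Sema6a was at 80.6 and 165 CPM and Sema5a at 69.1 and 137. Cluster 15 held 26 of the 32 KO cells.

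Endothelial-like cells were split by the ephrin pair of arteries and veins. In the control library 28 cells had an Efnb2 UMI and none of Ephb4, 56 had Ephb4 alone, 20 had both and 93 neither, and in the KO library the numbers were 38, 26, 28 and 105. Arterial marker genes summed to 723 CPM in control cells with Efnb2 alone and 415 in those with Ephb4 alone, and to 597 and 340 CPM in the KO library. Gja4, an arterial connexin, was at 407 and 175 CPM in the control and 263 and 145 in the KO library. Venous markers summed to 1185 and 1167 CPM in the control and 926 and 1267 in the KO library. The Efnb2 cells were thus richer in arterial markers in both libraries, whereas the venous sum differed beyond its interval in the KO library only. These splits rest on single UMIs, and cells with neither were shallower, at a median of 13114 and 7335 UMIs.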
